A study of Mus musculus with 20 samples.

Results

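Interferon-stimulated genes were followed through 9 listed members: Ifit1, Ifit2, Ifit3, Isg15, Irf7, Stat2, Oasl2, Rsad2 and Usp18. Every probe whose gene symbol was a member was taken, which gave 14 of the 45281 probes of the Illumina MouseWG-6 v2 BeadChip. A probe was kept where its detection p, which sets its signal against those of control probes with no target, was under 0.05 on at least 3 of the 20 arrays. The rule left 12 of the 14 probes, which stood for 8 of the 9 genes, and 23148 probes over the whole array. The only Ifit1 probe was detected on 0 of 20 arrays (lowest detection p 0.243), and so was 1 of the 3 Oasl2 probes, ILMN_2552783 (lowest detection p 0.0705).

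Type I interferons bind a receptor on the cell surface whose Janus kinases phosphorylate STAT proteins. STAT2 pairs with a partner STAT and joins IRF9, and this complex binds the interferon-stimulated response element in the promoters of target genes. The targets include antiviral effectors (the IFIT proteins, viperin, the oligoadenylate synthetases), the ubiquitin-like modifier ISG15, the amplifying factor IRF7 and the inhibitor USP18, and they are read as a signature of interferon exposure in joint tissues and in blood cells.

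RNA was extracted from knee articular cartilage of male mice aged 4 to 6 months on a C57Bl/6 background, wild-type or with the gene of the thyroid hormone-activating deiodinase disrupted (Dio2-/-, 6 backcross generations). Run mice were put on a treadmill for 3 weeks, on 5 days a week for 1 hour, at 11 m per minute and an incline of 5 degrees, and NoRun mice were not made to run. Each array held a pool of 2 mice: 3 wild-type NoRun pools, 8 wild-type Run pools, 3 Dio2-/- NoRun pools and 6 Dio2-/- Run pools. The sources describe wild-type mice as bought in and also describe all animals as littermates, so a difference of origin between the genotypes cannot be told apart from the genotype. Values are normalized log2 intensities, on which a step of 1 is a doubling, and only differences within a probe can be compared, since probes differ in brightness for the same RNA.

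The number of arrays limited the precision: between 18469 and 21386 probes were detected per array. The arrays lay on 6 chips, and the 3 Dio2-/- NoRun arrays filled a chip that held no other group, so for that group chip and condition cannot be told apart. Cartilage markers were present, with 11 of 13 listed genes kept, among them Col2a1, Acan, Sox9 and Chad, and Prg4 and Matn3 did not pass the detection rule. Genes of neutrophils (13 of 14 kept) and skeletal muscle (12 of 12 kept) were bright as well, and Dio2-/- NoRun pool 16 and Dio2-/- Run pool 24 stood apart, with neutrophil means of 12.74 and 13.89 against 14.80 to 15.11 in the other pools. In such bulk RNA, fewer cells of a type and less RNA per cell cannot be told apart. Of the targeted gene, 1 Dio2 probe was detected nowhere and the other lay near background, detected in 2 of the 11 wild-type pools and in 7 of the 9 Dio2-/- pools. The sources used here do not give its place relative to the disrupted part, so it checks nothing about the labels.

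The promoters of the members were read first, because the complex with STAT2 and IRF9 acts on target genes through the response element. Windows from 250 bases before to 50 bases after the transcription start were taken from RefSeq (GRCm38.p6), which held 8 of the 9 genes. The response element was searched as GAAA, any 2 bases, GAAA, on both strands, so that it also appears as TTTC, any 2 bases, TTTC. It was found in the windows of 5 of these 8 genes (Ifit1, Ifit3, Isg15, Stat2 and Rsad2) and in 3.44% of all 32851 windows. The gamma-activated site, TTC, any 3 bases, GAA, a palindrome counted once, was found for Ifit2 alone of the 8 genes and in 8.3% of all windows. The stretches that hold the response element are shown 5′ to 3′ along the gene, with the element in capitals, to show which members carry these letters and how they are spaced. A match is a description of the letters and not a measured binding site.
Ifit1 (chr19:34640755-34640843, + strand): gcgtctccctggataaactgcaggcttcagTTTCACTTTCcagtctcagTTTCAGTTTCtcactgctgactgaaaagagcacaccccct
Ifit3 (chr19:34583343-34583446, + strand): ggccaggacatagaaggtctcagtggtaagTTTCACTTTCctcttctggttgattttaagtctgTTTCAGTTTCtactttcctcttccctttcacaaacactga
Isg15 (chr4:156200845-156200926, - strand): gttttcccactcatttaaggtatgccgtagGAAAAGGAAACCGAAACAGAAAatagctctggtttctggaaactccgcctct
Stat2 (chr10:128270248-128270315, + strand): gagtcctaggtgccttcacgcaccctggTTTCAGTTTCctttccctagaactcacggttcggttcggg
Rsad2 (chr12:26456533-26456602, - strand): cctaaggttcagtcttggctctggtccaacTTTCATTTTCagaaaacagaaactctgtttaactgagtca

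Ifit1 and Ifit3 each carried 2 elements. Counted from the transcription start, with negative numbers before it, they began at -104 and -85 in Ifit1 and at -156 and -122 in Ifit3. Isg15 carried 3 elements that overlap each other, beginning at -78, -72 and -66, so they form the unbroken run of capitals above. Stat2 and Rsad2 carried 1 each, beginning at -222 and -120. The longer form with CT after the element was found for Ifit1 and Ifit3 only among the 8 genes, and in 0.271% of all windows. Both genes lie in the Ifit cluster of chromosome 19, where Ifit2 and Ifit3 are neighbours.

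No member probe passed an adjusted p of 0.05 (limma's moderated test with Benjamini-Hochberg adjustment over all 23148 probes) in any of the 6 comparisons described here. With arrays weighted by their fit, 3 were called for the genotype effect in NoRun, 3 for running in Dio2-/- and 1 for the difference of the genotype effects, but the weights had not converged. The plot of the members by group shows the 8 genes in every pool.

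**Figure D1:**
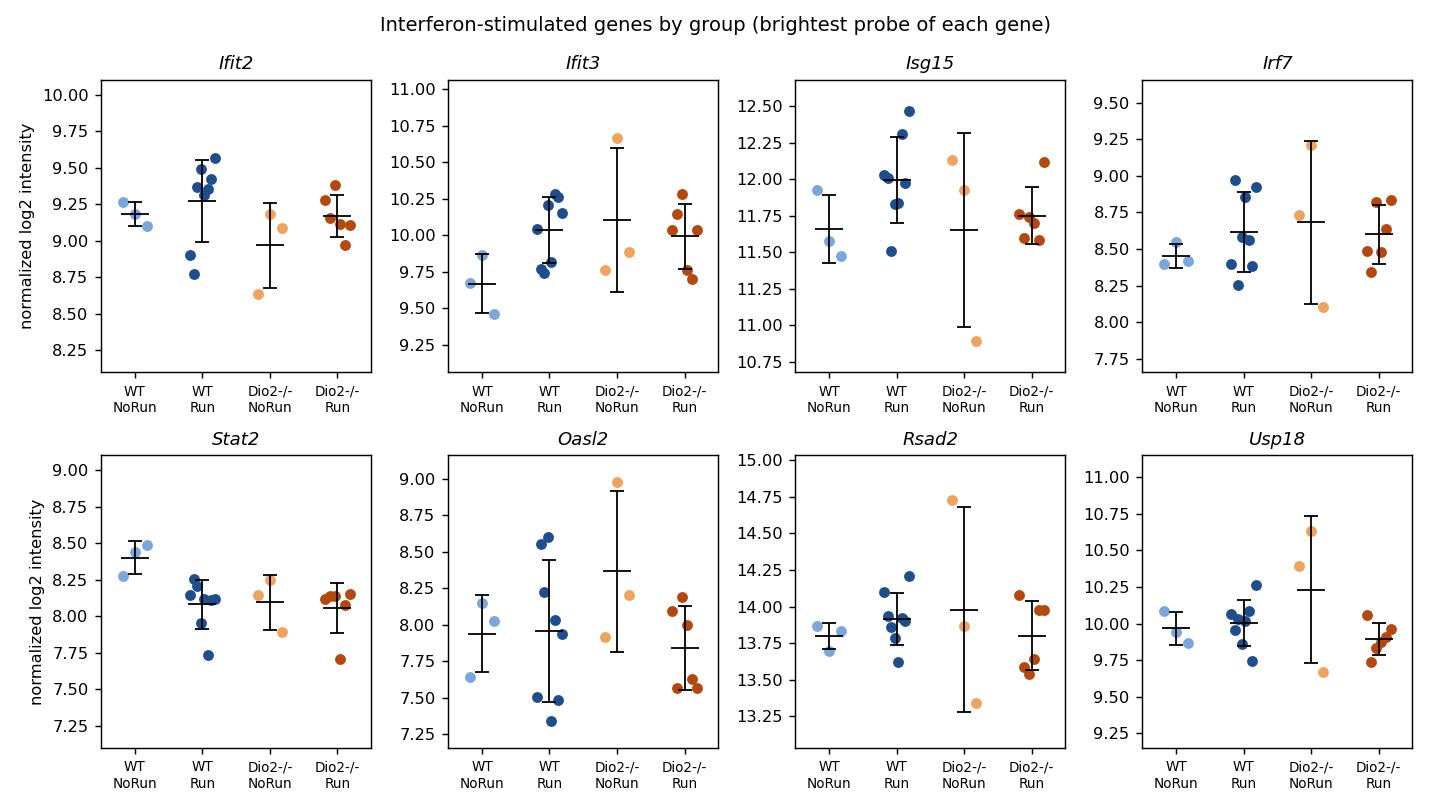
Normalized log2 intensity of the brightest probe of each of the 8 detected genes (y axis, 2 log2 units in every panel) in the 4 groups (x axis). Points are pools and bars are means with 1 SD (n = 3, 8, 3 and 6); the groups overlap for most genes, and the 3 Dio2-/- NoRun pools are far apart in Isg15, Irf7, Oasl2, Rsad2 and Usp18.

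The transcription factors came first in the order of the pathway. Stat2, a subunit of the factor that binds the element, measured 8.27, 8.44 and 8.49 in wild-type NoRun and 8.15, 8.25 and 7.89 in Dio2-/- NoRun. In wild-type Run it ranged from 7.73 to 8.26 (median 8.12), and in Dio2-/- Run from 7.71 to 8.15 (median 8.13). The wild-type NoRun pools were thus the highest of the 4 groups, without overlap with either wild-type Run or Dio2-/- NoRun. Stat2 was 0.32 lower in Run than in NoRun of wild-type (SE 0.13, unadjusted p under 0.05, adjusted p = 0.277 from limma), and 0.31 lower in Dio2-/- than in wild-type of NoRun (SE 0.15, adjusted p = 0.492). These comparisons share the wild-type NoRun pools, and neither passed the adjusted threshold. How many of all tested probes separate groups without overlap was not counted. A lack of overlap, here and for the probes below, is therefore only a description of these pools.

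Irf7, the factor that amplifies interferon production and is itself induced by interferon, measured 8.39, 8.55 and 8.42 in wild-type NoRun. In Dio2-/- NoRun it measured 8.73 in pool 16, 9.21 in pool 17 and 8.10 in pool 19, so that this group held both the highest and the lowest of the 20 values. Wild-type Run ranged from 8.25 to 8.97 (median 8.57), and Dio2-/- Run lay between 8.34 and 8.83 (median 8.56). All 4 groups overlapped. With running in the model, the genotypes differed by 0.06 (95% interval -0.21 to 0.32, limma adjusted p = 0.859).

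The IFIT proteins bind foreign RNA and block its translation. Ifit2 measured 9.27, 9.19 and 9.11 in wild-type NoRun and 8.64, 9.18 and 9.09 in Dio2-/- NoRun with its brighter probe (ILMN_2981167). Its range was 8.77 to 9.57 (median 9.36) in wild-type Run and 8.97 to 9.38 (median 9.14) in Dio2-/- Run. The lowest value belonged to pool 16, and the groups overlapped. The dimmer Ifit2 probe (ILMN_2981169) gave 6.61, 6.84 and 6.72 in wild-type NoRun and 6.74, 7.59 and 6.78 in Dio2-/- NoRun. It was most spread in wild-type Run, which held the lowest and the highest of its 20 values (6.33 and 8.03). With the brighter probe, Ifit2 was 0.14 lower in Dio2-/- pools with running in the model (95% interval -0.36 to 0.08, adjusted p = 0.541 from limma).

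Ifit3 measured 9.68, 9.86 and 9.46 in wild-type NoRun and 9.76, 10.67 and 9.89 in Dio2-/- NoRun with its brighter probe (ILMN_2944666). Its wild-type Run values lay between 9.74 and 10.28 (median 10.10), and those of Dio2-/- Run between 9.70 and 10.28 (median 10.04). Wild-type NoRun had the lowest mean, 9.67 ± 0.20 (SD, n = 3), against 10.03 ± 0.23 (n = 8) in wild-type Run. The means were 10.10 ± 0.49 (n = 3) in Dio2-/- NoRun and 9.99 ± 0.22 (n = 6) in Dio2-/- Run. Relative to wild-type NoRun, the difference was 0.37 in wild-type Run (SE 0.18, adjusted p = 0.398 from limma) and 0.44 in Dio2-/- NoRun (SE 0.22, adjusted p = 0.495), 2 comparisons that share those 3 pools.

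The dimmer Ifit3 probe (ILMN_1230458) was detected on 7 arrays: 0 of 3 in wild-type NoRun, 5 of 8 in wild-type Run, 1 of 3 in Dio2-/- NoRun and 1 of 6 in Dio2-/- Run. It was not well above background in wild-type NoRun, where its measured mean was 5.28 beside 5.80 in wild-type Run. Because this probe passed the detection rule mainly through wild-type Run, the rule itself favours a higher value there, and no fold is given.

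Isg15, the ubiquitin-like protein that is attached to other proteins after interferon, measured 11.93, 11.58 and 11.48 in wild-type NoRun. In Dio2-/- NoRun it measured 12.14 in pool 16, 11.93 in pool 17 and 10.90 in pool 19, the lowest of all pools. Wild-type Run ranged from 11.51 to 12.47 (median 11.99) and Dio2-/- Run from 11.59 to 12.12 (median 11.72). The groups overlapped. Among Run pools, Isg15 differed by -0.25 between Dio2-/- and wild-type (interval at 95% -0.61 to 0.12, with an adjusted p of 0.716 from limma), the largest such difference among the brightest probes of the 8 genes, and in wild-type it was 0.34 higher in Run than in NoRun (95% interval -0.12 to 0.79, adjusted p = 0.532).

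Usp18, the protease that removes ISG15 from proteins and also silences the interferon receptor, was read by a pair of probes. The brighter probe (ILMN_3131679) gave 10.09, 9.94 and 9.87 in wild-type NoRun and 10.39, 10.63 and 9.67 in Dio2-/- NoRun, with pools 17 and 16 above every other pool. Wild-type Run reached from 9.74 to 10.26 (median 10.02), and Dio2-/- Run stayed between 9.74 and 10.06 (median 9.89). The dimmer probe (ILMN_3054914) gave 7.06, 7.01 and 6.21 in wild-type NoRun and 6.53, 7.46 and 6.36 in Dio2-/- NoRun. In the running groups that probe lay between 7.15 and 7.86 (median 7.56) in wild-type and between 7.01 and 7.72 (median 7.44) in Dio2-/-. Wild-type Run lay above wild-type NoRun without overlap, while in Dio2-/- pool 17 reached into the running range.

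The dimmer Usp18 probe therefore had the largest running differences of the 12 probes, 0.77 in wild-type (SE 0.23, adjusted p = 0.145 from limma) and 0.64 in Dio2-/- (SE 0.24, adjusted p = 0.16). The brighter probe differed by 0.03 in wild-type (95% interval -0.28 to 0.35) and was 0.34 lower in Run than in NoRun of Dio2-/- (SE 0.16, adjusted p = 0.257 from limma). The probes of this gene thus ran in opposite directions in Dio2-/-. Without pool 17 the dimmer probe's difference in Dio2-/- was 0.98 with an adjusted p of 0.0454 from limma, the only call of a member when any 1 array was left out. Chip moves with this result, since the NoRun pools of each genotype lay on a chip apart from nearly all Run pools; on the chip that held the wild-type NoRun pools, the Dio2-/- Run pool 35 was 0.94 above their mean.

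Oasl2, a member of the oligoadenylate synthetase family, gave 7.64, 8.15 and 8.02 in wild-type NoRun and 7.91, 8.98 and 8.20 in Dio2-/- NoRun with its brighter probe (ILMN_2954868). That probe ranged widely in wild-type Run, from 7.34 to 8.60 (median 7.98), and less in Dio2-/- Run, between 7.56 and 8.19 (median 7.81). Pool 17 was the highest of the 20. The dimmer probe (ILMN_2599154) gave 6.97, 7.02 and 6.71 in wild-type NoRun and 6.72, 6.72 and 6.30 in Dio2-/- NoRun, and lay between 6.42 and 7.14 (median 6.88) in wild-type Run and between 6.74 and 7.38 (median 6.89) in Dio2-/- Run. All 6 Dio2-/- Run pools were above the 3 Dio2-/- NoRun pools with the dimmer probe, by 0.41 on average (SE 0.18, adjusted p = 0.215 from limma), whereas the brighter probe was 0.53 lower in Run there (SE 0.28, adjusted p = 0.303).

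Rsad2 encodes viperin, a radical SAM enzyme that makes an antiviral nucleotide. It measured 13.87, 13.70 and 13.84 in wild-type NoRun and 14.73, 13.87 and 13.34 in pools 16, 17 and 19 of Dio2-/- NoRun. Its range was 13.62 to 14.21 (median 13.91) in wild-type Run and 13.54 to 14.08 (median 13.81) in Dio2-/- Run. The Dio2-/- NoRun group again held the highest and the lowest of the 20 values, and the highest came from pool 16, which had the lowest mean of the neutrophil markers. With running in the model, the genotypes differed by -0.03 (95% interval -0.31 to 0.25, limma adjusted p = 0.95).

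Between the genotypes, with running in the model, the probes detected on all 20 arrays differed by -0.17 to 0.11 on the log2 scale. The comparison asks for differences in cartilage between Dio2-/- and wild-type mice that do not depend on running. None of the 12 passed adjusted p under 0.05, where 0.00432% of all tested probes did, and none had an unadjusted p under 0.05, where 14.3% did. Among the probes detected on all arrays, the ends of the 95% intervals farthest from 0 were -0.47 (Isg15) and 0.42 (Oasl2). Over the 8 genes the median difference was -0.01, with 4 genes higher and 4 lower, beside a median of 0.01 over all 12310 genes. With a fixed block for chip the median became -0.305, and Irf7, Ifit3, Usp18 and Oasl2 turned sign, so that all 8 genes were lower, with Isg15 at -0.615. These values rest on chip 6, the only chip with both genotypes under the same running condition. It held wild-type Run pool 23 and Dio2-/- Run pools 24 and 25, and pool 24 stood apart by its low neutrophil mean.

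Within NoRun, 8 of 12 probes were higher in Dio2-/-. They include the dimmer Ifit3 probe, detected in 0 of 3 wild-type and 1 of 3 Dio2-/- pools, so its direction is uncertain. Counted by gene, 5 of 8 were higher. Differences of the 12 probes ran from Stat2 and the dimmer Oasl2 probe at the low end (-0.31 and -0.32) to Ifit3 and Oasl2 at the high end (0.44 and 0.43). None passed adjusted p under 0.05 (0.0432% of all probes did) and none had an unadjusted p under 0.05 (10.4% did). The latter count was 2 with the normalized table that the authors deposited, 5 with array weights and 4 without pool 19. The median over the 8 genes was 0.20 beside 0.01 over all genes, and it rested on single pools, since it was 0.01 without pool 17 and 0.50 without pool 19.

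Within Run, all 8 genes were lower in Dio2-/- than in wild-type, with differences of -0.25 (Isg15) to -0.02 (Irf7) and a median of -0.11. Over all 12310 genes the median was 0.01 and 51.9% were higher. The dimmer Ifit2 and Usp18 probes were lower as well, and the dimmer Oasl2 probe was higher (0.18). The signs of the smallest differences rested on single pools: with 1 array left out, Irf7 turned sign in 6 cases, Ifit3 in 2 and Stat2 in 1, with values of at most 0.04. None passed adjusted p under 0.05 (0% of all probes did), and none had an unadjusted p under 0.05 (8.17% did). Chip 6 was the only chip with Run pools of both genotypes, and there the median over the probes was -0.31 between 2 Dio2-/- pools and wild-type pool 23. Pool 23 had the highest member mean of its group, and the Dio2-/- pools included pool 24, which stood apart in neutrophil markers.

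**Figure D2:**
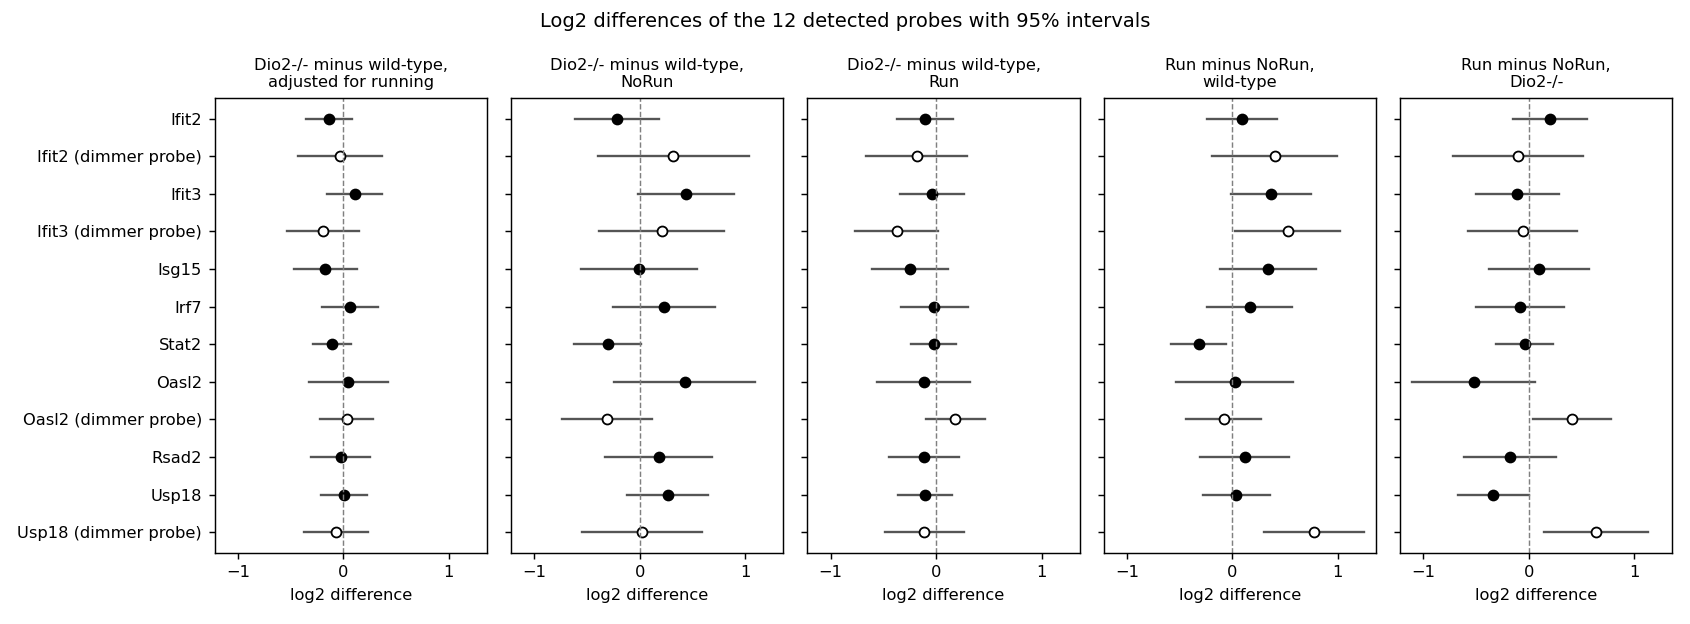
Log2 difference (x axis) of each of the 12 detected probes (rows) in 5 comparisons (panels), with 95% intervals from limma; filled points are the brightest probe of a gene and open points the dimmer probe. Most intervals include 0, the dimmer Usp18 probe lies above 0 in both running panels, and the Oasl2 and Usp18 probe pairs lie on opposite sides of 0 in the last panel.

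Running in wild-type went with lower means for Stat2 and the dimmer Oasl2 probe and higher means for the others. None passed adjusted p under 0.05, where 0.194% of all probes did. An unadjusted p under 0.05 was reached by 3 of 12, beside 13.2% of all probes: the dimmer Usp18 probe, which was higher, Stat2, which was lower, and the dimmer Ifit3 probe, whose direction the detection rule favoured. The count was 0 without wild-type NoRun pool 15 and 1 with chip as a fixed block. The groups did not overlap for the dimmer Usp18 probe and for Stat2, a description with no share of all probes to set beside it. Over the 8 genes the median was 0.10, with 7 of 8 higher, beside 0.01 over all genes. Wild-type NoRun and Run pools shared no chip. With chip as a fixed block the median was 0.505, a value that rests on chips 4 and 6 and is reached through Dio2-/- Run pools. Chip 4 held the wild-type NoRun pools with Dio2-/- Run pool 35. On chip 6 lay a single wild-type Run pool, 23, with Dio2-/- Run pools 24 and 25. Marker lists also differed between the wild-type groups. Cartilage means were 10.05 to 10.08 in NoRun and 9.03 to 9.95 in Run, and T and NK cell means 8.83 to 9.16 and 9.27 to 9.66. Average neutrophil (14.96 and 15.01) and macrophage markers (11.08 and 11.13) were closer. The part of tissue makeup in the wild-type running differences was not tested.

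Running in Dio2-/- went with lower means for 8 of 12 probes, among them the dimmer Ifit3 probe, which was not detected in most of these pools. None passed adjusted p under 0.05 (0.134% of all probes did), and 3 of 12 had an unadjusted p under 0.05 beside 19.2% of all probes: both Usp18 probes, in opposite directions, and the dimmer Oasl2 probe. This count was 1 without pool 33, 1 without pool 25, 1 with chip as a random block and 5 with array weights. The median over the 8 genes was -0.10 beside 0.02 over all genes, and it was 0.10 without pool 17 and -0.33 without pool 19. Among the probes detected on all arrays, the difference of the genotype effects between Run and NoRun ranged from -0.55 (Oasl2) to 0.50 (the dimmer Oasl2 probe). None of the 12 passed adjusted p under 0.05 or had an unadjusted p under 0.05, beside 0% and 5.13% of all probes, and the unadjusted count was 3 without pool 19. Its median over the 8 genes was -0.27, and -0.60 without pool 19 and -0.14 without pool 17.

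Of the 4 groups, the Dio2-/- NoRun pools differed most among themselves. After each gene was centred on its mean over the 20 arrays, the mean of the 8 genes was 0.11 in pool 16, 0.40 in pool 17 and -0.31 in pool 19. It lay between -0.11 and -0.02 in wild-type NoRun, between -0.08 and 0.26 in wild-type Run and between -0.16 and 0.05 in Dio2-/- Run. Pool 17 was the highest of the 20 for 4 of the 8 genes (Ifit3, Irf7, Oasl2 and Usp18) and pool 19 the lowest for 4 (Isg15, Irf7, Rsad2 and Usp18).

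The median SD of the 8 genes was 0.53 in Dio2-/- NoRun, beside 0.30 over all 12310 genes in that group. In wild-type NoRun it was 0.11 beside 0.18, in wild-type Run 0.25 beside 0.22, and in Dio2-/- Run 0.20 beside 0.26. The members thus varied more than the typical gene in Dio2-/- NoRun and less in the other NoRun group, which is a description of 3 pools each. Pools 17 and 19 had neutrophil means of 14.93 and 14.90, macrophage means of 11.05 and 10.98 and plasmacytoid dendritic cell means of 9.83 and 9.73, and pool 16 had 12.74, 9.51 and 9.43. Other marker lists differed more between pools 17 and 19. T and NK cell markers (9.36 and 8.91) and B cell markers (10.25 and 9.97) were higher in pool 17, as the members were, and muscle (13.71 and 14.49) and cartilage markers (9.66 and 9.99) were lower. Pool 16 lay beyond pool 19 in each of these lists (6.82, 7.86, 14.88 and 10.23). Osteoblast and osteocyte markers also differed, at 10.58, 10.88 and 9.62 in pools 17, 19 and 16. Erythroid markers were 13.64, 13.44 and 14.24, and endothelium markers 9.98, 10.25 and 10.43, in the same order. The member mean of pool 16, 0.11, lay between those of pools 17 and 19. It averaged genes at opposite ends: of the 3 pools, pool 16 had the highest Rsad2 (14.73) and the lowest Ifit2 (8.64, brighter probe). Whether the members followed these markers cannot be read from 3 pools. The part of these markers in the result was not tested.

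**Figure D3:**
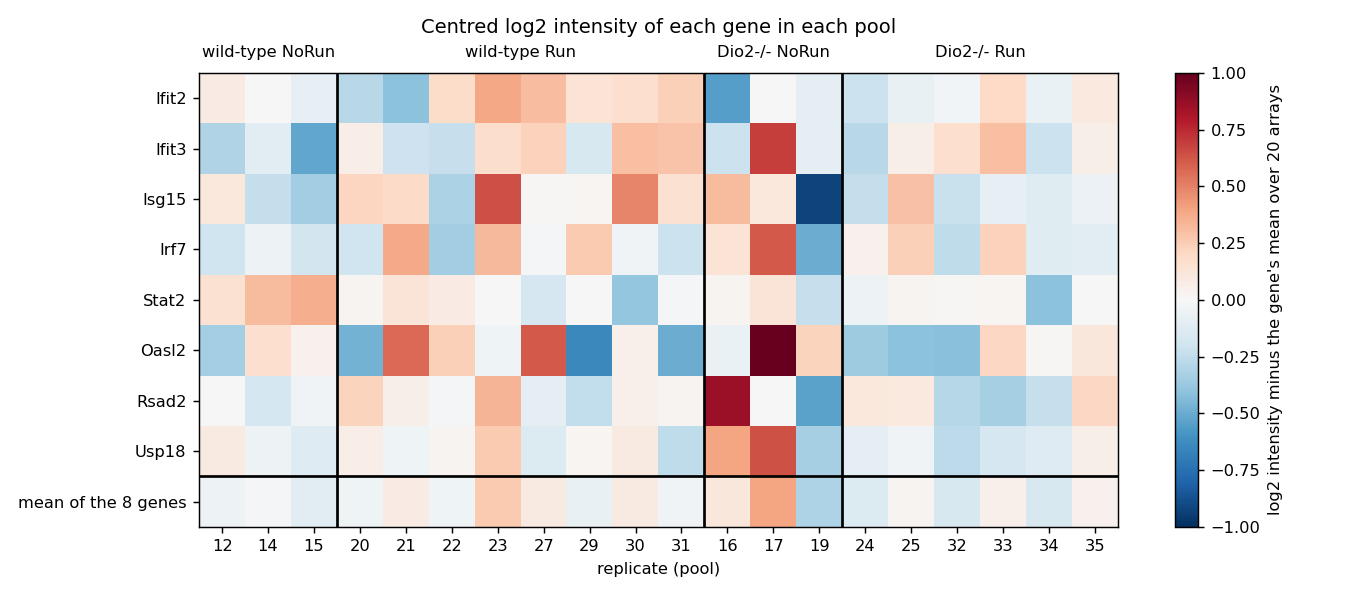
Log2 intensity of each of the 8 genes (rows, with their mean in the last row) in each of the 20 pools (columns, by group), minus the gene's mean over the pools; red is above and blue below it, and the colour scale ends at 1 on either side. The mean of the 8 genes is highest in Dio2-/- NoRun pool 17 (0.40) and lowest in pool 19 of the same group (-0.31).

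The 8 genes were loosely correlated with each other. Over the 20 pools, which share tissue makeup and array effects, 19 of the 28 pairs of the 8 genes had a positive Pearson correlation, with a median r of 0.18 and a range of -0.37 to 0.65. The closest pairs were Isg15 with Rsad2 (r = 0.65), Irf7 with Usp18 (0.63) and Rsad2 with Usp18 (0.63), while Ifit2 with Rsad2 was the lowest. With group means removed, 21 of 28 were positive with a median of 0.27. These correlations are given as a description only.

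Paired probes of the same gene were compared over the 20 arrays, 4 relations in all, each with a permutation test (100000 resamples, two-sided). Over the values as they stand, without regard to group or chip, the Ifit3 pair passed the adjusted threshold: Pearson's r was 0.59 (permutation p = 0.00604, adjusted p = 0.0242) and Spearman's rho 0.60 (permutation p = 0.00539, adjusted p = 0.0216). Without the 2 arrays farthest from the median of the brighter probe, r was 0.53. It was 0.62 with chip means removed. The dimmer Ifit3 probe was detected on 7 of the 20 arrays.

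For Usp18, r was 0.23 (permutation p = 0.331, adjusted p = 0.602) and rho 0.32 (permutation p = 0.172, adjusted p = 0.344). Pools 16 and 17 were the 2 farthest, and r was 0.58 without them, 0.69 with group means removed and 0.62 with chip means removed. For Ifit2, r was 0.16 (permutation p = 0.508, adjusted p = 0.602) and rho 0.15 (permutation p = 0.52, adjusted p = 0.52). For Oasl2, r was -0.12 (permutation p = 0.602, adjusted p = 0.602) and rho -0.21 (permutation p = 0.368, adjusted p = 0.491). With chip means removed, r was 0.54 for Ifit2 and 0.30 for Oasl2. With group means removed, r was 0.14 for Ifit2, 0.59 for Ifit3 and 0.10 for Oasl2. Each pair thus had a higher r with chip means removed than over the values as they stand, by little for Ifit3. Chip and group largely move together here, and no correlation across chips was computed. The transcripts that each probe covers were not analysed here.

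**Figure D4:**
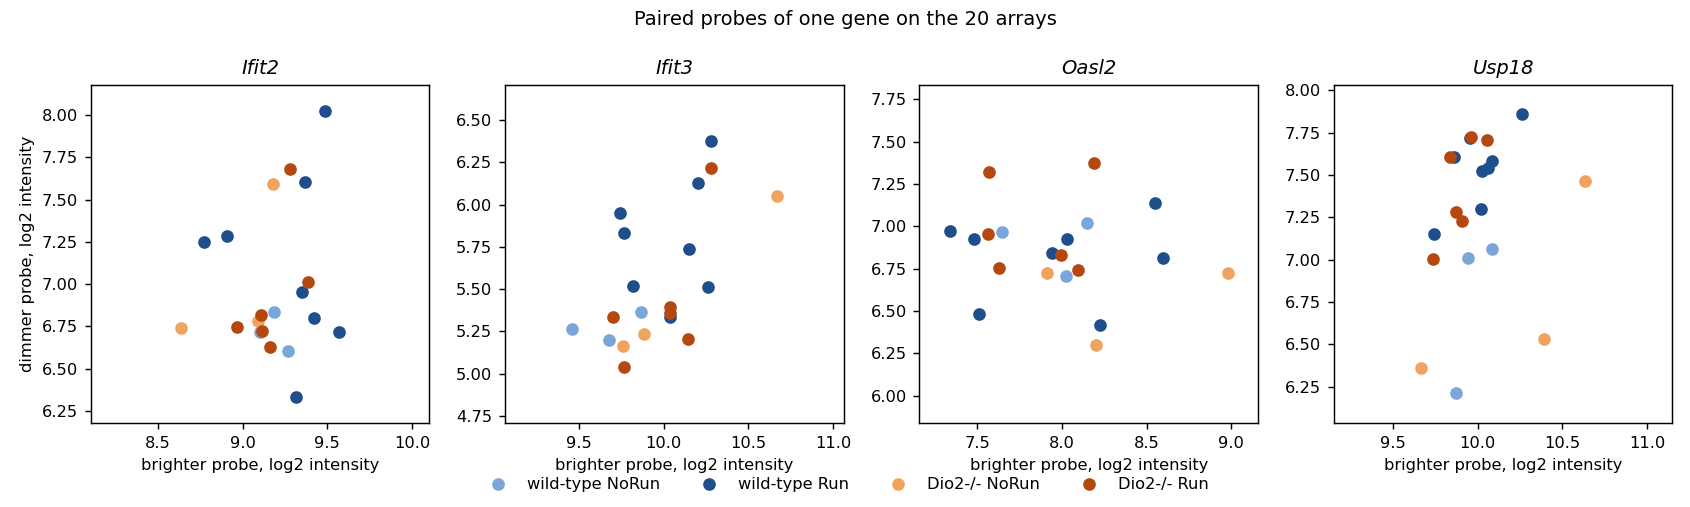
Normalized log2 intensity of the dimmer probe (y axis) against the brighter probe (x axis) of Ifit2, Ifit3, Oasl2 and Usp18, 1 point per array, coloured by group, with 2 log2 units on every axis. Pearson's r over the 20 arrays is 0.16, 0.59, -0.12 and 0.23 in that order, and the running pools of both genotypes lie mostly above the NoRun pools on the y axis of Usp18.

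The rest of the pathway was read from 7 fixed lists, with the brightest kept probe of each gene, and no gene in any list passed adjusted p under 0.05 in any comparison. Among the interferon receptors and kinases (8 of 9 kept), the genotype effect was lower in 4 and higher in 4. Ifnar2, a chain of the type I receptor, had the smallest p, at -0.21 (SE 0.09, adjusted p = 0.296 from limma), and was also 0.32 lower in Run than in NoRun of wild-type (adjusted p = 0.289). Of 10 interferons on the array, 2 were kept, Ifna1 (0.27, adjusted p = 0.362) and Ifnz (0.18, adjusted p = 0.579), with Ifnz near background, and the Ifna genes are so alike that the Ifna1 probe is uncertain.

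STAT and IRF factors other than the members (6 kept) had 5 of 6 lower in Dio2-/-, with a median of -0.13 and 0 at an unadjusted p under 0.05. Irf9, the DNA-binding partner of STAT2, was at -0.16 (adjusted p = 0.432). Nucleic acid sensors and adaptors (9 of 12 kept) had 7 of 9 lower, with Aim2, a sensor of cytosolic DNA, at -0.38 (SE 0.15, adjusted p = 0.276 from limma) and Tlr7, a sensor of single-stranded RNA, at -0.44 (SE 0.19, adjusted p = 0.304). These 2 of the 9 had an unadjusted p under 0.05 from limma, beside 14.3% of all probes. Over all genes, 52.1% were higher. Pool 16 was low in T and NK cell markers as well (6 of 8 kept), at 6.82 beside 8.04 in pool 24 and 8.83 to 9.69 in the other pools, and the part of blood cells in these differences was not tested.

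Other interferon-induced antiviral genes (33 of 45 kept) had 24 lower in Dio2-/- and 9 higher, with a median of -0.06 beside 0.01 over all genes. An unadjusted p under 0.05 was reached by 6, all lower, which is 6 of 33 beside the 14.3% of all probes. Samd9l, an antiviral restriction factor, had means of 13.01 ± 0.05 (SD, n = 3) and 12.85 ± 0.16 (n = 8) in wild-type NoRun and Run, and 12.42 ± 0.59 (n = 3) and 12.43 ± 0.28 (n = 6) in Dio2-/- NoRun and Run. Its genotype difference was -0.47 (SE 0.12, adjusted p = 0.187 from limma), larger than that of any member. Sp100, a nuclear body protein, was at -0.46 (SE 0.12, adjusted p = 0.189), and Dtx3l, a ubiquitin ligase, at -0.30 (SE 0.09, adjusted p = 0.204).

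Genes induced by interferon-gamma, the GTPases and the antigen presentation machinery (17 of 20 kept), had 13 lower and 4 higher in Dio2-/-, with Gbp7 at -0.27 (adjusted p = 0.296) and Gbp3 at -0.24 (adjusted p = 0.32). Over all genes, 52.1% were higher. An unadjusted p under 0.05 from limma was reached by 2 of 17, both lower, beside 14.3% of all probes. In Dio2-/- mice, 14 of 17 were higher in Run than in NoRun, with a median of 0.17 beside 0.02 over all genes and a lowest adjusted p of 0.0681 from limma. Of these 17 genes, 4 were higher and 2 lower at an unadjusted p under 0.05 from limma, beside 19.2% of all probes in this comparison. Some blood cell markers were higher in Run too, and pool 16 is 1 of the 3 NoRun pools. Neutrophil means in Dio2-/- NoRun and Run were 14.19 and 14.76, and macrophage means 10.52 and 10.84. They were 9.36 and 9.81 for B cells and 8.36 and 9.29 for T and NK cells. Erythroid (13.77 and 13.61) and plasmacytoid dendritic cell markers (9.66 and 9.55) were lower in Run. The part of these cells in the result was not tested. For the genotype effect, negative regulators (8 of 9 kept) had 6 lower and 2 higher in Dio2-/-. Of the 8, 4 had an unadjusted p under 0.05 from limma, all lower, beside 14.3% of all probes. The low neutrophil, macrophage and T and NK cell markers of Dio2-/- pools 16 and 24 stand beside this count too. Among them were Pias1, an inhibitor of STAT binding (-0.19, adjusted p = 0.263), Ptpn2, a phosphatase of Janus kinases (-0.31, adjusted p = 0.33), and Samhd1, which depletes nucleotides (-0.26, adjusted p = 0.333).

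Genes most like the members were ranked by Pearson correlation, over the 20 arrays, with the mean of the 8 centred genes. Of 12302 other genes the first 10 were Chrna7 (r = 0.67), Gnb4, Nfyb, Lrrd1, 4930524J08Rik, Stt3b, Taf5l, Ctps, Cbln1 and Oasl1 (r = 0.62). The first 50 held 4 genes of the pathway lists, Oasl1, Irf9, Eif2ak2 and Cxcl10, and 0 of the marker lists. The 83 kept genes of the pathway lists had a median r of 0.14 beside 0.01 over all genes. With group means removed, Oasl1, a relative of Oasl2 and its neighbour on chromosome 5, came first (r = 0.75). The ranking depended on a few pools: without pools 16 and 24, 19 of the first 50 and 2 of the first 10 were shared.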

How the data were processed

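Knee cartilage RNA of 20 pools had been hybridized to Illumina BeadChips. The authors deposited linear probe intensities that were not normalized, each with a detection p-value, and a table of log2 values that the authors had normalized between arrays. The submitters' processing notes name GenomeStudio; its version and settings are not stated. Intensities were background-corrected and quantile-normalized with neqc (offset 16) of limma 3.58.1 in R 4.3.3, which uses the detection p-values. Probes detected at p under 0.05 on at least 3 arrays were fitted with lmFit and eBayes, genotype and running over all 20 arrays for the genotype effect, and 4 groups for the other contrasts, with Benjamini-Hochberg adjustment over 23148 probes. Only the fit of the genotype effect was tested on simulated data, with independent pools, no chip effect and added differences larger than those of any member. That test does not cover differences as small as those of the members, nor chips that move with group.

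Groups, pool numbers and chips were taken from the sample labels. Of all probes, 34885 had 1 gene symbol, 18 several and 10378 none listed. A gene with several kept probes was represented by the brightest. Alternatives were no background correction, the deposited log2 values, other detection filters, chip as a fixed or random block, a trended robust fit, array weights, and leaving out arrays. Named genes were all members; per pathway list, at most 3 genes with the smallest p in the genotype effect and 3 in the running effect in wild-type; and the 10 genes most like the members. Members, lists and rules were chosen with earlier results of these data known. P-values measure the spread between pools. Quantile normalization assumes a like distribution in every pool, and a signal near background understates a fold change.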

Additional observations from a re-analysis of the deposited data

Results flagged for a closer look

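Of 24 sets of values (12 probes in the wild-type Run and Dio2-/- Run groups), 4 (16.7%) held a pool far from the others of its group by Dixon's test. The nominal rate of the test is about 1 in 20 for independent sets, and these sets share pools and genes. No share over all tested probes is given to set beside the count, so it is only a description of the members. All 4 were in Dio2-/- Run, and each was a different pool. The dimmer Ifit2 probe measured 7.682 in pool 35, with the next pool at 7.01. The dimmer Ifit3 probe measured 6.215 in pool 33, the only detected value of that group, with the next at 5.40. Isg15 measured 12.117 in pool 25, with the next at 11.77. Stat2 measured 7.711 in pool 34, below the next pool at 8.07, and without that pool its genotype difference in Run was 0.04 instead of -0.02.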

How the results depend on the processing

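Values below are log2 differences, and the causes of the changes were not tested. Of 2124 recomputed values of single probes, 2020 kept their direction and their side of the threshold, 8 passed the adjusted threshold that they had missed, 0 lost it, and 34 changed sign under another setting and 62 with 1 array left out, none of these with an adjusted p under 0.05. No other normalization, starting table, detection filter or variance model changed a count of calls at an adjusted p under 0.05 or the sign of a member probe. Groups share no pool numbers: no paired analysis was possible because pools of different groups carry different numbers.

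With chip as a fixed block, the median over the member genes was -0.305 for the genotype effect over both running groups and in Run, and 0.505 for running in wild-type. The genotype value rests on the pools of chip 6, and the running value on those of chips 4 and 6. For the genotype effect over both running groups, the signs turned for Irf7 (-0.189), Ifit3 (-0.283), Usp18 (-0.327), Oasl2 (-0.341) and the dimmer Ifit2 probe (0.066, also in Run). The other 3 contrasts could not be fitted with this block, since the Dio2-/- NoRun pools filled their chip. With chip as a random block (correlation 0.112) the dimmer Ifit2 probe was at 0.024.

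Array weights called members that no other setting with all 20 arrays called. In the fit with 4 groups the weights ranged from 0.16 (Dio2-/- NoRun pool 16) to 6.24 (pool 19 of the same group). Pool 19 therefore nearly set the mean of its group, and the estimation of these weights stopped before it converged. In the separate fit for the genotype effect over both running groups, the weights ranged from 0.18 (pool 16) to 1.68 (pool 19). In NoRun, 3 probes were called lower in Dio2-/-, namely Isg15 (-0.728, adjusted p = 0.0133 from limma), Stat2 (-0.429, adjusted p = 0.019) and the dimmer Oasl2 probe (-0.607, adjusted p = 0.00816), and the median was -0.233. For running in Dio2-/-, 3 were called higher, Isg15 (0.737, adjusted p = 0.00485), the dimmer Oasl2 probe (0.67, adjusted p = 0.00155) and the dimmer Usp18 probe (0.921, adjusted p = 0.00131), and the median was 0.094. For the difference of the genotype effects 1 was called, the dimmer Oasl2 probe (0.791, adjusted p = 0.0302), and the median was 0.143. Signs turned with array weights for the genotype effect over both groups in Irf7 (-0.018) and Usp18 (-0.072), and in NoRun in Irf7 (-0.23), Usp18 (-0.236), Rsad2 (-0.382) and the dimmer Usp18 probe (-0.48). They turned for running in wild-type in Usp18 (-0.02), and for running in Dio2-/- in Ifit3 (0.05), Stat2 (0.081), Usp18 (0.098), Rsad2 (0.311), Irf7 (0.35) and the dimmer Ifit2 (0.009) and Ifit3 (0.06) probes. They turned for the difference of the genotype effects in Usp18 (0.117), Irf7 (0.17), Rsad2 (0.209), Isg15 (0.495) and the dimmer Usp18 probe (0.333).

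Without pools 16 and 24 together, signs turned for the genotype effect over both groups in Usp18 (-0.027) and the dimmer Ifit2 probe (0.024), in NoRun in Rsad2 (-0.196), in Run in Ifit3 (0.019), for running in Dio2-/- in Rsad2 (0.161), and for the difference of the genotype effects in Ifit2 (-0.015), Isg15 (0.035) and Rsad2 (0.045).

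With 1 array left out at a time, the median ranged from 0.014 to 0.504 for the genotype effect in NoRun, from -0.326 to 0.104 for running in Dio2-/- and from -0.601 to -0.135 for the difference of the genotype effects, with the ends set by pools 17 and 19. The count of calls for running in Dio2-/- ranged from 0 to 1. Signs turned within these ranges. For the genotype effect over both groups they were -0.128 to 0.062 (dimmer Ifit2 probe), -0.021 to 0.123 (Irf7), -0.057 to 0.117 (Oasl2), -0.031 to 0.09 (dimmer Oasl2 probe), -0.136 to 0.044 (Rsad2) and -0.063 to 0.062 (Usp18). In NoRun they were -0.076 to 0.364 (dimmer Ifit3 probe), -0.248 to 0.371 (Isg15), -0.035 to 0.52 (Irf7), -0.196 to 0.5 (Rsad2) and -0.315 to 0.236 (dimmer Usp18 probe). In Run they were -0.097 to 0.019 (Ifit3), -0.068 to 0.036 (Irf7) and -0.075 to 0.043 (Stat2). For running in wild-type they were -0.128 to 0.125 (Oasl2) and -0.014 to 0.095 (Usp18). For running in Dio2-/- they were -0.252 to 0.175 (dimmer Ifit2 probe), -0.283 to 0.171 (Ifit3), -0.215 to 0.226 (dimmer Ifit3 probe), -0.28 to 0.338 (Isg15), -0.372 to 0.183 (Irf7), -0.144 to 0.037 (Stat2) and -0.499 to 0.197 (Rsad2). For the difference of the genotype effects they were -0.055 to 0.218 (Ifit2), -0.616 to 0.002 (Isg15), -0.536 to 0.019 (Irf7), -0.615 to 0.081 (Rsad2) and -0.347 to 0.205 (dimmer Usp18 probe).

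The signal over background limits the dimmer probes most. The longer response element left 2 of 5 member genes with a match.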
